A study of Mus musculus with 12 samples.

Results

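Ccl20 and Ccr6 encode a chemokine and its receptor, and were read here by gene name on every array as the 2 genes of interest among 23925 genes tested. CCL20 is a chemokine secreted by keratinocytes and other epithelial cells, and CCR6 is the only chemokine receptor known for it. In skin, CCR6 marks the T cells that make IL-17, both conventional and gamma-delta, along with B cells and some dendritic cells, and CCL20 draws these cells towards the epidermis. Ccl20 transcription is known to respond to IL-1, TNF and IL-17 through NF-kB.

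RNA came from whole ear skin of mice of 5 genotypes, collected 4 h after topical imiquimod (IMQ), given as 62.5 mg of 5% cream, or left untreated. Imiquimod is a ligand of the receptor TLR7 and is used to provoke a psoriasis-like inflammation. The genotypes were Card14-/-, which lacks a keratinocyte scaffold protein that signals to NF-kB, Tlr7-/-Tlr9-/-, Tlr7-/-, Tlr9-/- and wild type (WT), with no restriction of a knockout to a tissue named in the labels. The strain was C57BL/6J. The 12 single-colour arrays carried 60-base probes, and each was hybridized with 200 ng from a pool of 6 to 8 animals. IMQ skin had 2 arrays each of Card14-/- and Tlr7-/-Tlr9-/- and 1 array each of Tlr7-/-, Tlr9-/- and WT, and untreated skin had 1 array per genotype. No group received cream without imiquimod, so imiquimod, cream base, handling and time cannot be told apart in any response below.

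Spots of one probe, for probes printed at least 8 times, had a median SD of 0.0551 (log2) within an array. The 2 repeat arrays of a genotype had 0.0313 between them for 308 genes printed once at like signal. Over all genes they had 0.0593. On the comparison at like signal the repeat arrays were counted as 1 sample. The p-values that rest on them measure the spread between arrays, not between mice. The 4 repeat arrays lay on a second slide, and all other arrays on the first. Well above background lay 60.1% to 65.7% of the spots of an array, and 0 spots were saturated. IMQ arrays were dimmer before normalization, with a 75th percentile of 527 to 779 intensity units against 1070 to 1236 on untreated arrays. The label check held for Tlr7, at 4.03 to 5.85 (log2 level) in the 5 arrays of mice lacking it and 7.36 to 8.12 in the other 7, and for Card14, at 9.63 to 9.89 in 3 arrays and 10.82 to 11.65 in 9. The Tlr9 probe overlapped between the 5 arrays of mice lacking Tlr9 (10.95 to 11.33) and the other 7 (11.05 to 11.39) and so does not check that label. Of the keratinocyte markers 9 of 10 had a usable probe, each of the 9 being well above background on all 12 arrays. Their summed linear signal was 801528 to 923423 in IMQ and 896202 to 950491 in untreated skin. In the average response given below, 2 of the 9 rose and 2 fell. The shares of all genes called were 10.5% upward and 15.6% downward.

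Each gene had 1 probe, printed once. The Ccl20 probe lies on the mm9 build at chr1:83115500-83115559 and the Ccr6 probe at chr17:8449933-8449992. The exon or UTR each one covers was not looked up, since no mm9 annotation was used here. Both probes were well above background on 12 of 12 arrays. The 250 bases before the RefSeq start of Ccl20 are shown because several of the genes measured below encode NF-kB subunits and inhibitors. They lie on GRCm38.p6 at chr1:83116516-83116765, plus strand, and end at the base before the start. The capitals, at -82 to -71, mark the bases covered by overlapping kappaB-type matches on both strands.
Ccl20 upstream: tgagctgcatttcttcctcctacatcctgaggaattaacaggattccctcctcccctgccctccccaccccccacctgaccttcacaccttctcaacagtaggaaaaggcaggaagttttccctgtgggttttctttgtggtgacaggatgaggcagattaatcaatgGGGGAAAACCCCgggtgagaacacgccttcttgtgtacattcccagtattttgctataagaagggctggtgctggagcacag

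The relaxed kappaB pattern GGGNNNNNCC, searched on both strands, occurs in 45.8% of the 32851 RefSeq windows of 250 bases before a gene start. It matched the Ccl20 window at -82 and -81 on the plus strand and at -81 and -80 on the minus strand, and it also matched 1 of the 2 Ccr6 windows. The letters of the match at -81 to -72, GGGAAAACCC, which were taken from the Ccl20 sequence itself, occur in 0.113% of the windows (37 of 32851), in the Ccl20 window among them and in neither Ccr6 window. A match describes the letters and is not evidence of binding.

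Ccl20 was high in every IMQ array and low in every untreated array. After IMQ its normalized log2 level was 10.98 and 10.94 on the 2 Card14-/- arrays, 11.52 and 11.46 on the 2 Tlr7-/-Tlr9-/- arrays, 11.22 in Tlr7-/-, 10.26 in Tlr9-/- and 10.70 in WT. In untreated skin it was 5.59 in Card14-/-, 6.43 in Tlr7-/-Tlr9-/-, 7.22 in Tlr7-/-, 6.32 in Tlr9-/- and 6.39 in WT. The lowest IMQ array, Tlr9-/-, lay 3.04 above the highest untreated array, Tlr7-/-, so the 2 sets did not overlap. IMQ arrays lay wholly above untreated arrays for 8.65% of all genes tested. Before normalization the same probe read 827 to 2531 intensity units (median 1750) on the 7 IMQ arrays and 60.6 to 212 (median 121) on the 5 untreated arrays, also without overlap. In whole skin, more cells that express a gene and more RNA per cell cannot be told apart.

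**Figure D1:**
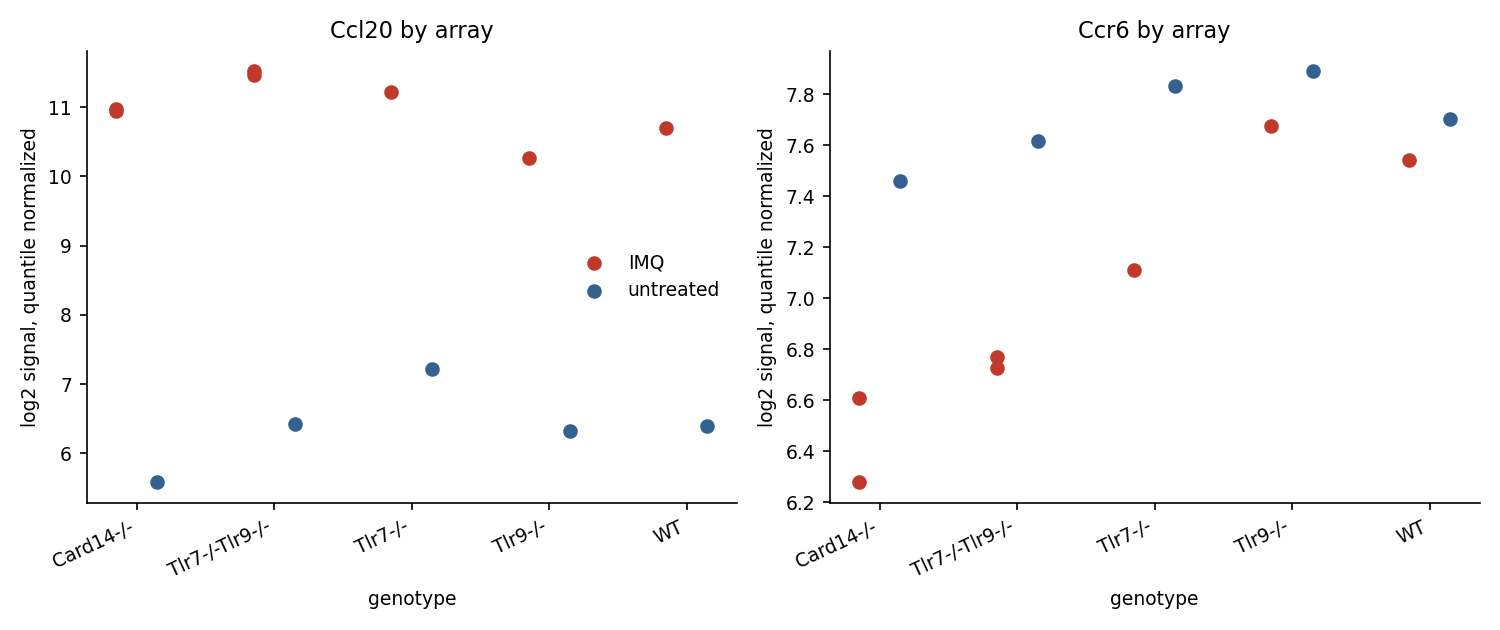
Normalized log2 signal of Ccl20 and of Ccr6 on each of the 12 arrays (points), by genotype, with IMQ skin left of untreated skin. Ccl20 lay between 10.26 and 11.52 after IMQ and between 5.59 and 7.22 in untreated skin, whereas the Ccr6 ranges, 6.28 to 7.68 after IMQ and 7.46 to 7.89 in untreated skin, overlapped.

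Averaged over genotypes, Ccl20 stood at 10.93 ± 0.47 (SD, n = 5 genotypes) after IMQ and at 6.39 ± 0.58 (SD, n = 5) in untreated skin. The average response, IMQ minus untreated, was 4.54 ± 0.25 (SE) on the log2 scale, a 23.2-fold rise with a 95% confidence interval of 15.2-fold to 35.4-fold (limma, adjusted p = 0.00349). Only 1 of the 23925 genes rose more. This test called 26.2% of all genes, 10.5% upward and 15.6% downward. Scaling each array to its 75th percentile changes the split of these calls, with 51.4% of them upward in place of 40.3%. The rise of Ccl20 was past the threshold in each of the alternative settings tried, and between 4.33 and 4.68 when any 1 genotype was left out. With the 3 genotypes whose arrays share a slide the rise was 4.08.

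The order of Ccl20 levels after IMQ, highest first, was Tlr7-/-Tlr9-/-, Tlr7-/-, Card14-/-, WT and Tlr9-/-. Neighbours in this order were 0.26 to 0.44 apart, more than the gaps of 0.06 and 0.04 between the repeat arrays. In untreated skin the order was Tlr7-/-, Tlr7-/-Tlr9-/-, WT, Tlr9-/- and Card14-/-. Untreated Tlr7-/-Tlr9-/- and WT were 0.04 apart, within the larger repeat gap, while untreated WT and Tlr9-/- were 0.07 apart, just beyond it. The repeat gaps hold no spread between pools of mice, which these groups do not provide, so the order is one of single pools. Both gaps come from the second slide, which held treated Tlr7-/-Tlr9-/- and Card14-/- skin, with the other groups on the first. They therefore hold no difference between slides. Slide and genotype cannot be told apart in steps of the treated order from one slide to the other.

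Ccl20 rose with and without Tlr7. The response was 5.06 in Tlr7-/-Tlr9-/- and 3.99 in Tlr7-/-, against 5.37 in Card14-/-, 3.95 in Tlr9-/- and 4.31 in WT. The 2 genotypes that lack Tlr7 averaged 4.53 and the 3 others 4.54, and the ranges overlapped. Each side holds a genotype with treated and untreated arrays on different slides, Tlr7-/-Tlr9-/- and Card14-/-, so slide enters both averages. The difference, without minus with Tlr7, was -0.02 ± 0.55 (SE), with a 95% confidence interval from -1.45 to 1.42 (limma, adjusted p = 1 after rounding). As a ratio of folds this interval runs from 0.366 to 2.67, so a dependence of moderate size in either direction was not detectable with 5 pairs of pools. This test called 0% of all genes. By limma 0 of the 23925 genes tested passed at an adjusted p under 0.05, and 750 of the 23925 had an unadjusted p under 0.05.

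**Figure D2:**
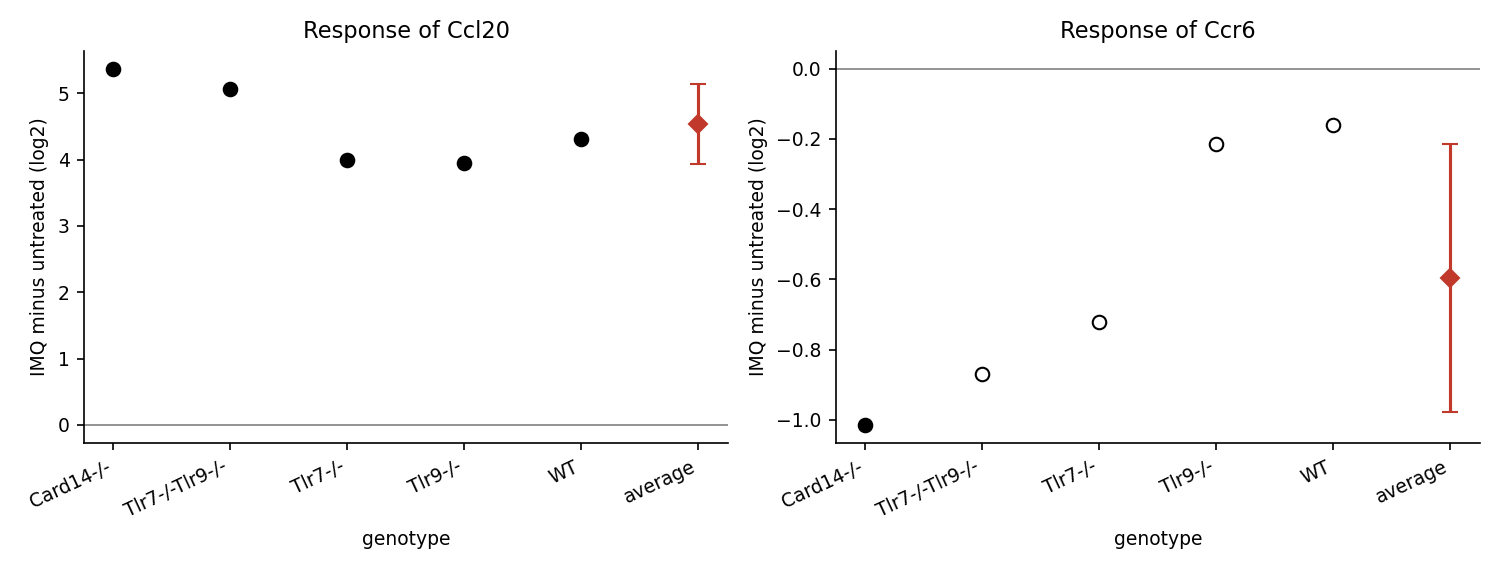
Response of Ccl20 and of Ccr6, IMQ minus untreated on the log2 scale, in each genotype (circles, filled where past adjusted p 0.05 and a size of 1 in the fit on repeat arrays) and on average (diamond, with its 95% confidence interval). Ccl20 rose by 3.95 to 5.37 in all 5 genotypes, and the Ccr6 response ran between -1.01 and -0.16.

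Within genotypes, the Ccl20 rise was 41.4-fold in Card14-/-, 33.4-fold in Tlr7-/-Tlr9-/-, 15.9-fold in Tlr7-/-, 15.4-fold in Tlr9-/- and 19.8-fold in WT. All 5 were called by limma at an adjusted p of 0.0020 to 0.0067 and a log2 size of at least 1, against 3.11% of all genes called upward in Card14-/-, 3.95% in Tlr7-/-Tlr9-/-, 3.95% in Tlr7-/-, 5.19% in Tlr9-/- and 7.86% in WT. The IMQ arrays of Card14-/- and Tlr7-/-Tlr9-/- lay on the second slide and their untreated arrays on the first. Slide and treatment therefore cannot be told apart in the Ccl20 responses of these genotypes. The spread in this fit comes from the repeat arrays alone, with 2 residual degrees of freedom. With any 1 of the 4 repeat arrays left out, 1 residual degree of freedom remained and the adjusted p of the Ccl20 rise became 0.058 to 0.064 in Tlr7-/-Tlr9-/-. Without either Card14-/- array it was 0.051 in Tlr9-/- and 0.095 in Card14-/- at the highest. The sizes hardly moved, at 5.35 to 5.39 in Card14-/- and 5.03 to 5.09 in Tlr7-/-Tlr9-/-.

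On the quantile-normalized scale Card14-/- skin had the largest Ccl20 response of the 5 genotypes. With normexp background correction Card14-/- had 4.30 and Tlr7-/-Tlr9-/- 4.34, and on the deposited values 4.76 and 4.75. The Card14-/- response exceeded the WT response by 1.06 on the log2 scale (95% confidence interval 0.82 to 1.31, limma, adjusted p = 0.0145), in a comparison that called 10.6% of all genes at that p and a log2 size of at least 1. With normexp, untreated Card14-/- and WT skin stood at 6.88 and 7.29, and treated skin at 11.18 and 10.86. On the deposited values untreated skin stood at 6.47 and 6.95, and treated skin at 11.23 and 10.91. On the quantile-normalized scale the excess lay mainly in the untreated arrays. Untreated Card14-/- skin was 0.81 below untreated WT skin, while IMQ Card14-/- skin was 0.26 above IMQ WT skin. Without any 1 repeat array that difference was still 1.04 to 1.08 but its adjusted p was 0.055 to 0.076.

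The Tlr7-/-Tlr9-/- response exceeded that of WT by 0.75 (95% confidence interval 0.51 to 1.00, limma, adjusted p = 0.0206), short of the size limit of 1 in a comparison that called 10.3% of all genes. Here the excess lay in the treated arrays, which were 0.79 above WT, with untreated arrays 0.04 above. Without any 1 repeat array the adjusted p was 0.069 to 0.074. The Tlr7-/- and Tlr9-/- responses were 0.32 and 0.36 below that of WT, with adjusted p of 0.122 and 0.144 in comparisons that called 3.48% and 1.1% of all genes. Treated Card14-/- skin was 0.53 below treated Tlr7-/-Tlr9-/- skin (limma, adjusted p = 0.0329), again under the size limit, where 1.46% of all genes were called. With a replicate block its adjusted p was 0.127, and 0.157 to 0.213 with 1 repeat array left out. The IMQ arrays of Card14-/- and Tlr7-/-Tlr9-/- were the 4 on the second slide, so slide and genotype cannot be told apart in the treated part of their differences from WT. The untreated arrays all lay on the first slide. All 4 differences from WT share the WT arrays.

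Ccr6, the receptor, was lower after IMQ in some genotypes and hardly different in others. After IMQ its log2 level was 6.61 and 6.28 on the 2 Card14-/- arrays, 6.73 and 6.77 on the 2 Tlr7-/-Tlr9-/- arrays, 7.11 in Tlr7-/-, 7.68 in Tlr9-/- and 7.54 in WT. In untreated skin it was 7.46 in Card14-/-, 7.62 in Tlr7-/-Tlr9-/-, 7.83 in Tlr7-/-, 7.89 in Tlr9-/- and 7.70 in WT. Treated Tlr9-/- and WT skin lay within the untreated range, so the 2 sets overlapped, and the other 5 treated arrays lay below it. Before normalization the probe read 65.4 to 150 intensity units (median 87.7) on the IMQ arrays and 222 to 325 (median 303) on the untreated arrays, without overlap, on IMQ arrays whose 75th percentile was lower, as given above. After normalization treated arrays lay wholly below untreated arrays for 13% of all genes.

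Over genotypes Ccr6 averaged 7.10 ± 0.52 (SD, n = 5) after IMQ and 7.70 ± 0.17 (SD, n = 5) in untreated skin. The average response was -0.60 ± 0.16 (SE), 1.51-fold lower after IMQ (limma, adjusted p = 0.0406). It was lost with the slide as a block (-0.37, adjusted p = 0.0605), in the 3 genotypes of one slide (-0.37, adjusted p = 0.149) and with 75th percentile scaling (-0.51, adjusted p = 0.1). It was also lost without Card14-/- (-0.49), without Tlr7-/-Tlr9-/- (-0.53), without Tlr7-/- (-0.56) or without Tlr9-/- (-0.69), and it passed without WT (-0.71, limma, adjusted p = 0.0491). By genotype the response was -1.01 in Card14-/-, -0.87 in Tlr7-/-Tlr9-/-, -0.72 in Tlr7-/-, -0.21 in Tlr9-/- and -0.16 in WT. For Card14-/- and Tlr7-/-Tlr9-/- the IMQ arrays lay on the second slide and the untreated arrays on the first. Slide and treatment therefore cannot be told apart in the Ccr6 responses of these genotypes. Only the Card14-/- value passed both limits (limma, adjusted p = 0.0372), where 1.34% of all genes were called downward, against 2.24% in Tlr7-/-Tlr9-/-, 3.66% in Tlr7-/-, 3.94% in Tlr9-/- and 6.73% in WT. It was lost without any 1 of the repeat arrays (-1.18 to -0.85, adjusted p of 0.094 to 0.098). In WT the sign depended on scaling, with 0.06 after 75th percentile scaling.

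For Ccr6 the response without Tlr7 minus that with Tlr7 was -0.33 ± 0.32 (SE), with a 95% confidence interval from -1.15 to 0.48, and limma did not call it. The responses of Card14-/-, Tlr7-/-Tlr9-/-, Tlr7-/- and Tlr9-/- minus that of WT were -0.85, -0.71, -0.56 and -0.05, none of them called. Treated Card14-/- skin was 0.30 below treated Tlr7-/-Tlr9-/- skin, with an adjusted p of 0.267. In the order of the 10 groups, the untreated groups and the treated Tlr9-/- and WT groups filled the top 7 places with steps of at most 0.13, less than the 0.33 between the 2 treated Card14-/- arrays. Treated Tlr7-/-, Tlr7-/-Tlr9-/- and Card14-/- skin followed in that order, with Tlr7-/-Tlr9-/- and Card14-/- on the second slide.

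Among 2927 genes whose 10 group means varied enough to compare, the 5 with the pattern most like Ccr6 were all genes of striated muscle. They were Myh13, Tnni1, Myh7, Myl2 and Myh7b, with Pearson correlations of 0.96 to 0.98 over the 10 groups, which share slides, treatment and genotypes. Tnni1 and Myh7 encode the slow-fibre forms of troponin I and myosin heavy chain. Myh7 stood at 11.08 in Card14-/-, 11.47 in Tlr7-/-Tlr9-/-, 12.19 in Tlr7-/-, 12.87 in Tlr9-/- and 13.05 in WT after IMQ, against 12.76 to 13.30 in the untreated groups. Its response thus ran from -1.87 in Card14-/- to 0.30 in WT, beside -1.01 and -0.16 for Ccr6. The average responses of the 5 muscle genes were -0.89 to -0.70, with 1 of them, Tnni1, past the threshold (-0.83, limma, adjusted p = 0.0200). Since these genes were chosen for a pattern like that of Ccr6, responses like its own had to follow. Their values are a description. Of the 6 skeletal muscle markers 3 fell, Myh1 by 0.80, Acta1 by 0.42 and Mylpf by 0.39, where 15.6% of all genes fell. The others had 0.26 (Myh4), 0.18 (Tnnt3) and -0.17 (Ckm), without a call. The list had a summed signal of 246377 to 365188 after IMQ and 278861 to 356033 in untreated skin. Without WT 1 of the 6 fell, and without any 1 of the other genotypes 0 did. In the 3 genotypes of one slide 2 rose and 0 fell, with a median response of -0.09. With a slide block 2 rose and 3 fell, and with 75th percentile scaling 1 rose and 2 fell. What part muscle RNA has in the Ccr6 values was not tested.

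**Figure D3:**
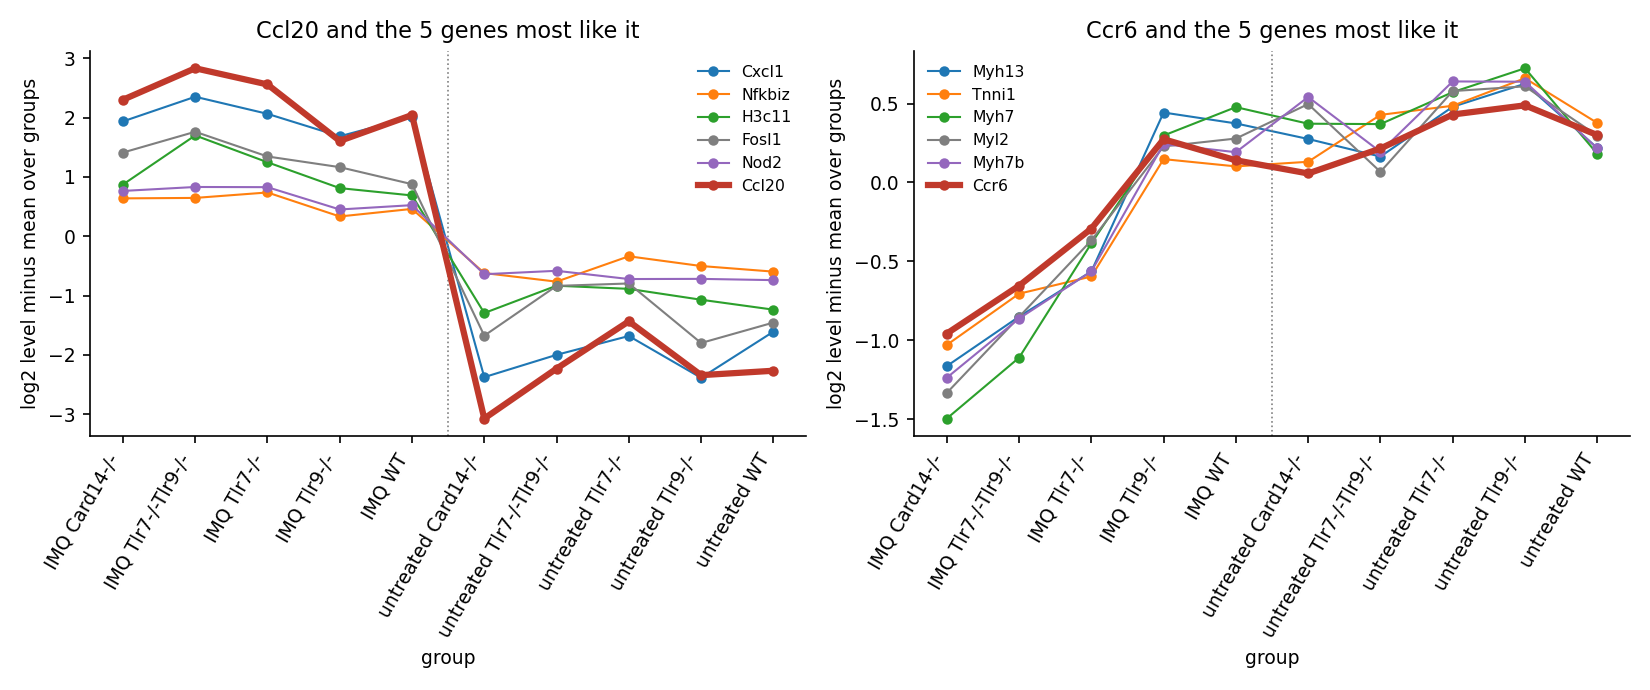
Log2 level of Ccl20 (left) and Ccr6 (right), each with the 5 genes most like it, as the difference from the gene's own mean over the 10 groups, with IMQ groups left of the dotted line and untreated groups right of it. Ccl20 and Cxcl1 separate by treatment, and Ccr6 goes with Myh7 and Myl2, lowest in treated Card14-/- and Tlr7-/-Tlr9-/- skin.

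The 5 genes most like Ccl20, among 2926, were Cxcl1, Nfkbiz, H3c11, Fosl1 and Nod2, with correlations of 0.98 to 0.99 over the same 10 groups. Cxcl1 is a neutrophil attractant, Nfkbiz encodes an inducible NF-kB cofactor that acts in IL-17 responses, Fosl1 an AP-1 subunit and Nod2 an intracellular sensor of bacterial peptidoglycan. Their average responses were 4.02 for Cxcl1, 2.62 for Fosl1, 2.13 for the histone gene H3c11, 1.36 for Nod2 and 1.13 for Nfkbiz. Since Ccl20 separates by treatment, genes chosen for a like pattern had to do so too, and these values are a description. The correlation of Ccl20 with Ccr6 itself was -0.68 over the 10 groups, as a description.

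The other ligands reported for CCR6 are beta-defensins. Of 4 such genes, Defb3 and Defb4 were above background on 0 arrays. Defb14 responded by 0.37 ± 0.18 (SE) and Defb2, well above background on 7 arrays, by -0.02 ± 0.28, and limma called neither.

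Most cytokine genes of the IL-23 and IL-17 axis were well above background on 1 array at most. Il17a, Il17f, Il17c and Il12b were so on 0 arrays and Il23a on 1, and the receptor gene Il23r on 0. Il22, well above background on 3 IMQ and 2 untreated arrays, responded by 0.68 ± 0.22 (limma, adjusted p = 0.0696). Of the 12 measured genes of 18 in the IL-23 and IL-17 axis, 2 rose and 1 fell, against 10.5% of all genes called upward and 15.6% downward. The median response was -0.12 and that of all genes -0.07. Il22ra1, a subunit of the IL-22 receptor, rose by 1.36. Its response was 0.34 in Card14-/-, 0.90 in Tlr7-/-Tlr9-/-, 1.44 in Tlr7-/-, 1.54 in Tlr9-/- and 2.60 in WT. In Card14-/- and Tlr7-/-Tlr9-/-, slide and treatment cannot be told apart. Without Tlr7-/- or Tlr9-/- none of the 12 was called. Stat3, which signals below IL-23 and IL-22, rose by 0.32, while its 2 other probes gave -0.03 and 0.79.

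Of the 15 measured genes of 20 that keratinocytes are known to induce with IL-17, 5 rose and 0 fell, against 10.5% of all genes called upward and 15.6% downward, with a median of 0.34. Beside Cxcl1 and Nfkbiz these were Il20, an IL-10 family cytokine (2.15), Lcn2, an iron-binding antimicrobial protein (1.24), and Zc3h12a, which encodes an RNase that limits cytokine mRNAs (0.35). S100a8 and S100a9, alarmins of inflamed epidermis, had -0.75 and 0.27 and were not called. Cxcl5, well above background on only 1 IMQ and 3 untreated arrays, had -1.69 without a call. In all, 10 of the 15 did not pass the test.

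All 23 genes chosen as inducers of Ccl20 or NF-kB steps were measured, and 9 rose and 1 fell, against 10.5% of all genes called upward and 15.6% downward, with a median of 0.15. Il1b rose by 1.65 and Tnf by 1.27, although second probes of each gave 0.73 and 0.58. Bcl3, an atypical NF-kB cofactor, rose by 1.51, and Nfkbia, the inhibitor that NF-kB itself induces, rose by 0.96. Tnfaip3, a deubiquitinase that limits NF-kB, rose by 0.82, and Relb, Malt1, Rela and Nfkb2 by 0.29 to 0.36. Other probes of Rela and Relb were near 0 or below, and those of Malt1 gave 0.38 to 1.17. Nfkb1, Rel and Bcl10, at -0.04 to 0.11 without a call, had other probes at 0.71 to 0.89. Other probes of Traf6, also not called, ran from -0.31 to 0.45, and that of Nfkbib gave -0.42. Il1rap, an accessory chain of the IL-1 receptor, fell by 0.29. Without 1 genotype fewer rose, 6 without Card14-/- or WT, 5 without Tlr7-/-Tlr9-/- or Tlr9-/- and 4 without Tlr7-/-. None of these genes was called in the test of Tlr7 dependence.

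**Figure D4:**
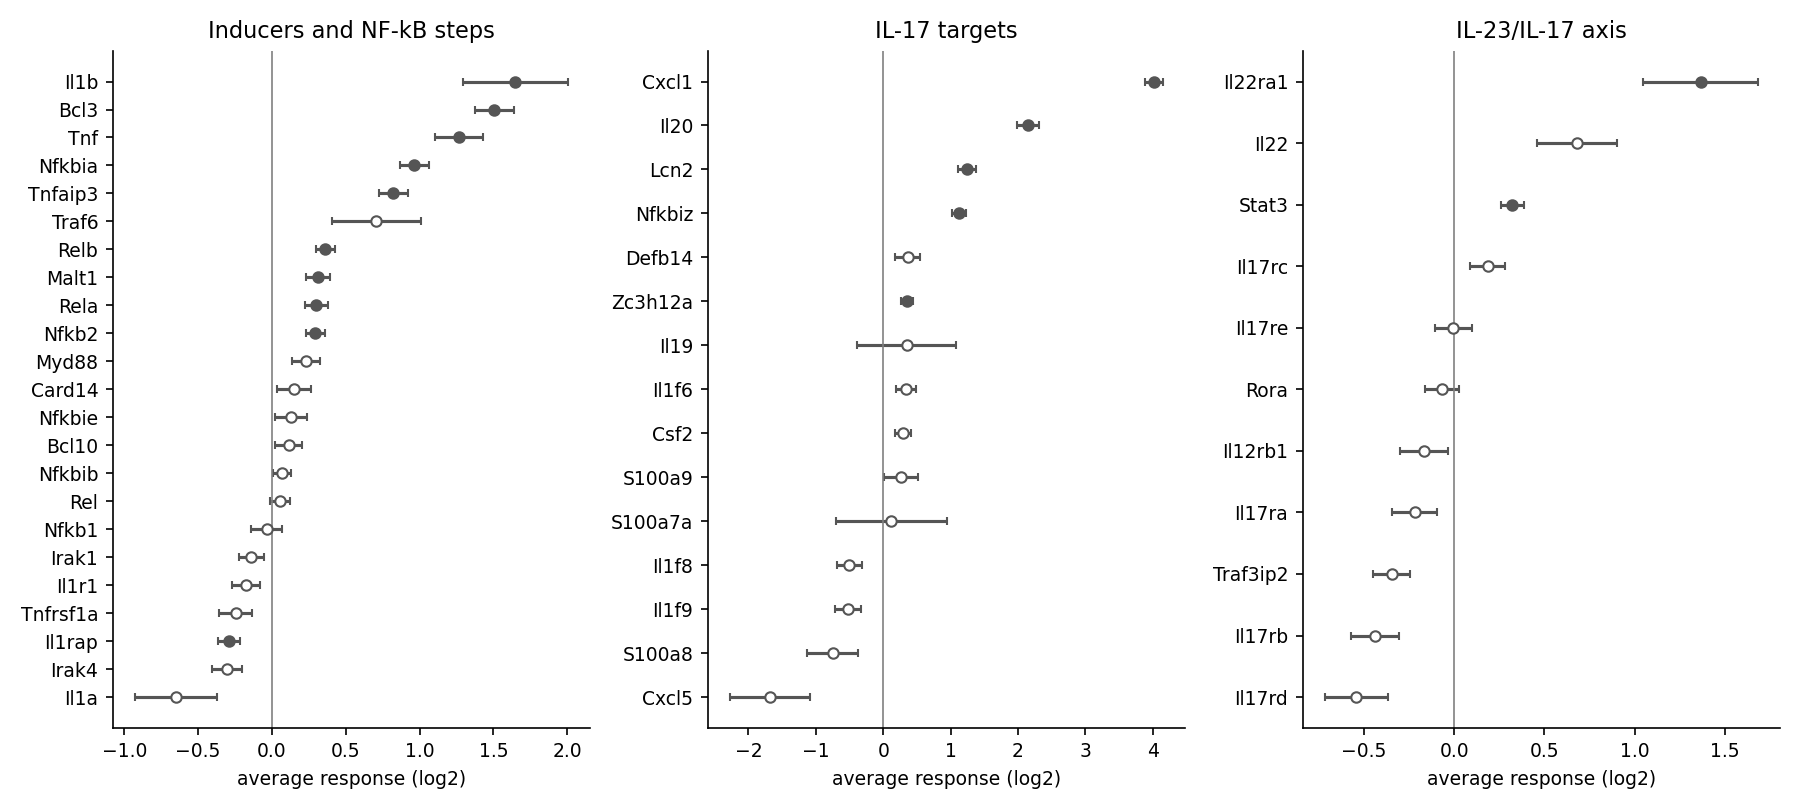
Average response to IMQ, IMQ minus untreated on the log2 scale, with its SE over 5 genotypes, for genes of the lists of NF-kB steps and inducers, IL-17 targets, and IL-23 and IL-17 axis genes (filled points passed the test). Cxcl1 (4.02) stands apart from the other IL-17 targets, and Il1b (1.65) and Bcl3 (1.51) lead the first list.

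Ccl20 had the largest average response among the C-C chemokines measured. Of 18 others of 20 with usable values, 9 rose and 1 fell, beside the same shares of all genes, with a median of 0.71 against -0.07 over all genes. The largest were Ccl1 at 1.83, with 0.01 on its second probe, and the monocyte attractants Ccl12 at 1.80, Ccl2 at 1.79 and Ccl7 at 1.70. Ccl11, an eosinophil attractant, fell by 0.60. When 1 genotype was left out, 7 or 8 of the 18 still rose, or 5 where it was Tlr9-/- or WT, and 1 fell. Without minus with Tlr7, the response differed by -1.71 for Ccl12, -1.52 for Ccl7 and -1.06 for Ccl2, beside -0.02 for Ccl20, and limma called none of these differences.

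Of 11 measured C-C chemokine receptors other than Ccr6, 1 rose and 3 fell, against 10.5% of all genes called upward and 15.6% downward, with a median of -0.12. Ccr7, the receptor of dendritic cells on their way to lymph nodes, rose by 0.87, with 0.42 on a second probe. Ccr4, a receptor of skin-homing T cells, fell by 1.12, Ccr2, the monocyte receptor of CCL2, fell by 0.96, and Ackr4, a scavenging receptor, fell by 0.49. Without Tlr7-/-, Tlr9-/- or WT only 1 fell, and 0 rose without Tlr7-/-Tlr9-/-, Tlr7-/- or Tlr9-/-. Their summed signal was 14027 to 16267 on IMQ arrays and 16597 to 18679 on untreated arrays.

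**Figure D5:**
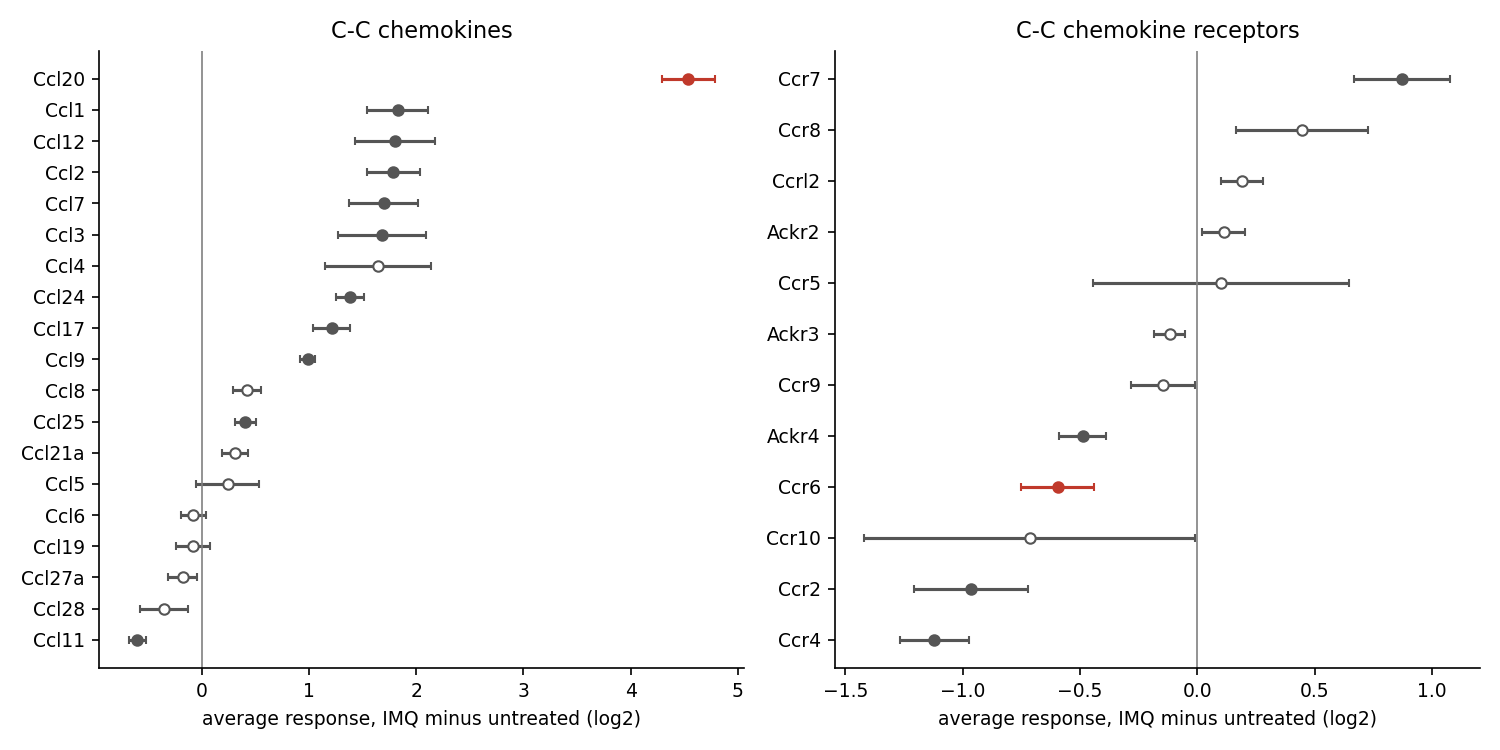
Average response to IMQ, IMQ minus untreated on the log2 scale, with its SE over 5 genotypes, for measured C-C chemokines and receptors (filled points passed the test), with Ccl20 and Ccr6 in red. Ccl20 at 4.54 lies beyond Ccl1 at 1.83, and Ccr6 at -0.60 lies between Ackr4 at -0.49 and Ccr2 at -0.96.

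Cells that can carry CCR6 were read by their markers. Of 9 measured T cell markers 7 rose, among them Cd2 (0.86), Cd3e (0.80) and Cd3d (0.76), and Cd5 fell by 1.00, against 10.5% of all genes called upward and 15.6% downward. The same shares apply to the marker lists that follow. Without Tlr7-/- or without Tlr9-/- 2 rose, and 4 without WT. Their summed signal was 7871 to 13422 after IMQ and 6068 to 7112 in untreated skin. Of 12 genes chosen for gamma-delta T cells and group 3 innate lymphoid cells, 6 were measured, of which 1 rose, Il7r by 0.73, and 1 fell. The constant-region genes Trdc, Trgc1 and Trgc2 had no named probe here and Blk was above background on 0 arrays, so this list lacks its defining genes. Its summed signal was 12046 to 14704 after IMQ and 13082 to 16928 in untreated skin.

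Of 7 measured B cell markers 1 rose, Ms4a1 by 2.06, and the summed signal was only 530 to 894 after IMQ and 388 to 423 in untreated skin. Of 9 measured Langerhans and dendritic cell markers 4 rose, among them Cd207, the langerin gene (1.20), and H2-Aa, an MHC class II chain (0.63). Zbtb46 fell by 0.82, with 0.08 on its other probe. Of these markers 3 rose without Card14-/-, 2 without Tlr7-/-Tlr9-/-, Tlr7-/- or WT, and 1 without Tlr9-/-. Their summed signal was 42565 to 70770 after IMQ and 40586 to 46962 in untreated skin. Of 9 neutrophil markers 1 rose, against 10.5% of all genes called upward and 15.6% downward. It was Retnlg, well above background on the 7 IMQ arrays and on 0 untreated arrays, so that it passed the signal filter only through the IMQ arrays. It was at least 3.38-fold higher after IMQ. The part these cells have in the values of Ccl20 and Ccr6 was not tested.

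The genes next to each locus in the reference order were read as well. Krtap28-13, a hair keratin-associated gene beside Ccl20, had -1.81 ± 1.38 (SE) without a call, and Daw1 on the other side was above background on 0 arrays. Beside Ccr6, Cep43, a centrosomal gene, rose by 0.57 (limma, adjusted p = 0.00878), and Mpc1, a mitochondrial pyruvate carrier, had -0.14 without a call.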

How the data were processed

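The authors deposited scanner files with spot intensity values from Agilent Feature Extraction, version 10.7.3.1 per the file headers and 10.5.1.1 per the submitters' processing notes. The processed signal used here is background-subtracted intensity, per the file headers. A second file, a matrix of log2 values, was deposited by the authors, who per the labels subtracted background and normalized with limma. Its column medians are 6.37 to 6.38, and it served as an alternative.

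Processed signals of 59305 non-control spots (56605 probes) were log2 transformed and quantile normalized (R 4.3.3, limma 3.58.1, package data.table in version 1.17.8). Outlier flags removed 472 probes. A probe had to be well above background on 2 arrays or more, which 36893 were. They gave 23925 genes, 17907 with a reference name, and the probe of highest mean stands for its gene. Probes were named through RefSeq tables (GRCm38.p6), 32771 by accession and 10677 by symbol. Sequence windows are from RefSeq.

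For the average response, limma's lmFit and eBayes took 1 value for each of the 10 groups, with genotype as a block. Tlr7 dependence was fitted on the 5 responses. Group contrasts came from a fit of the 10 groups. A call needed an adjusted p (Benjamini-Hochberg) below 0.05 and, in group contrasts, a log2 size of 1 or more. Tests are two-sided and were tested on simulated data. Same-numbered repeat arrays did not deviate together (correlation 0.06), so numbers do not pair samples. Precision is limited by how few arrays there are.

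The genes, lists and tests were chosen with earlier results of these data known. Named were, per list, up to 4 called members with the largest response, other CCR6 ligands, cytokines of the IL-17 axis, the 5 genes most like each of the 2 genes (Pearson correlation over 10 group means, SD of at least 0.5), and locus neighbours. A few list members are not reported here by name, though they count in their lists. Other list members named were chosen after their values were seen. Tables and figures used Python 3.11.15, numpy 2.4.6, pandas 2.3.3 and matplotlib 3.10.9. Alternatives covered scaling, background correction, the deposited values, the filter, slide, and each genotype or repeat array left out. Marker lists of macrophage, endothelial, fibroblast, melanocyte, adipocyte, cartilage and erythroid cells were also read. In these, 2 of 7, 5 of 8, 0 of 7, 0 of 6, 1 of 5, 0 of 4 and 2 of 3 measured markers rose, and 0, 1, 3, 1, 0, 1 and 0 fell, in that order.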

Additional observations from a re-analysis of the deposited data

Results flagged for a closer look

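The Ccl20 response of Tlr7-/-Tlr9-/- skin minus that of WT skin was 0.75 on the log2 scale (limma, adjusted p = 0.0206), and the response of Card14-/- skin minus that of WT skin was 1.06 (limma, adjusted p = 0.0145). Both are listed because the test of the difference itself gave an adjusted p under 0.05. Its spread comes from repeat arrays counted as 1 sample, so it sets single pools against differences between arrays only. With any 1 repeat array left out the adjusted p was 0.069 to 0.074 for Tlr7-/-Tlr9-/- and 0.055 to 0.076 for Card14-/-. On the quantile-normalized scale, 0.81 of the Card14-/- difference lay between the untreated arrays, which share the first slide. In the treated part, 0.26 for Card14-/- and 0.79 for Tlr7-/-Tlr9-/-, slide and genotype cannot be told apart.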

How the results depend on the processing

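Each of 12 results was recomputed under its alternatives, 102 values per gene. Ccl20 kept direction and side of the threshold in 84 and lost a call in 14, and its Tlr7 difference turned positive in 4. Ccr6 kept both in 86, lost a call in 15 and changed sign in 1. The Ccl20 difference without minus with Tlr7 was 0.23 with normexp background correction and 0.16 on the deposited table, and -0.55 to 0.52 with 1 genotype left out, never called. The average Ccr6 response of -0.60 lost its call with 75th percentile scaling (-0.51), without a filter on dim probes (-0.60), with a slide block and in genotypes of one slide (-0.37 each), and was -0.71 to -0.49 with 1 genotype left out. Its Card14-/- response lost its call with normexp (-0.65), on the deposited table (-0.75) and without the filter (-1.01), and the WT response was 0.063 with 75th percentile scaling. The Ccl20 difference of Card14-/- from WT fell under the size limit with normexp (0.72) and on the deposited table (0.80). The cause was not tested.

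With 1 repeat array left out, 1 residual degree of freedom remains. The Ccl20 response was then 3.95 to 3.95 in Tlr9-/-, 5.03 to 5.09 in Tlr7-/-Tlr9-/- and 5.35 to 5.39 in Card14-/-, its Card14-/- difference from WT 1.04 to 1.08, and the Ccr6 response in Card14-/- -1.18 to -0.85. Genes called then numbered 174 to 1448 in Tlr7-/-, 0 to 1930 in Tlr9-/-, 0 to 0 in Tlr7-/-Tlr9-/- and 0 to 284 in Card14-/-, and in differences from WT 0 to 173 for Tlr7-/- and 0 for Tlr9-/-, Tlr7-/-Tlr9-/- and Card14-/-, and 0 to 195 between treated Card14-/- and Tlr7-/-Tlr9-/-. With a replicate block on those 4 arrays, 103 genes were called in place of 349, and the Ccl20 difference between treated Card14-/- and Tlr7-/-Tlr9-/- skin had an adjusted p of 0.127 in place of 0.0329. Neither it nor that of Ccr6 reached the size limit.

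Genes called for the average response numbered 6257, against 9442 with 12 arrays as separate values, 11844 with a slide block, and 1343 to 5206 with 1 genotype left out. With normexp the responses called 523 genes in Card14-/-, 510 in Tlr7-/-Tlr9-/-, 911 in Tlr7-/-, 911 in Tlr9-/- and 1634 in WT, and the deposited values called 671, 753, 1200, 1215 and 2184, against 1064, 1481, 1821, 2185 and 3490. Differences from WT called 1403 genes for Card14-/- and 1351 for Tlr7-/-Tlr9-/- with normexp. For Tlr9-/- they called 84 with 75th percentile scaling, 437 with normexp and 1261 without a filter, and for Tlr7-/- 1706 without a filter. The upward share of calls with 75th percentile scaling was 62.7% in Tlr7-/-, 77.6% in Tlr9-/- and 75.7% in WT, against 51.9%, 56.8% and 53.9%. Of 76 called list and like genes, all kept their sign in each setting except Dcn with 75th percentile scaling, and 31 to 56 kept their call with 1 genotype left out. No second probe of Ccl20 or Ccr6 exists, so that alternative gave no value.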
